A study of Arabidopsis thaliana with 4 samples.

Results

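QQS and 9 genes of leaf starch turnover were followed through 4 libraries of nuclear RNA from leaves of Arabidopsis thaliana, ecotype Col-0. The 10 loci, among 32548 nuclear loci in the files, were chosen by name: QQS (AT3G30720), GBSS1 (AT1G32900), SEX1 (AT1G10760), PWD (AT5G26570), BAM1 (AT3G23920), BAM3 (AT4G17090), ISA3 (AT4G09020), DPE1 (AT5G64860), DPE2 (AT2G40840) and PHS2 (AT3G46970). The choice was made with differences between these libraries already known, so all ratios below are descriptions. All 10 passed the minimum of 40 reads summed over the libraries that 15669 loci passed.

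The libraries are an input and an immunoprecipitate (IP) from plants carrying MTA-GFP, and an input and an IP from a control line. MTA is the methyltransferase that places N6-methyladenosine on messenger RNA, and IP was done with GFP Trap beads, which bind GFP. Titles name the control GFP while its genotype entry reads CFP. All plants were 4 weeks old, grown in soil under 16 h light and 8 h dark at 22 °C, and their leaves were crosslinked with 0.1% formaldehyde before nuclei were isolated. No label states the promoter behind MTA-GFP, the number of plants pooled or the hour of harvest. With 1 library per group there is no replicate to check a difference and no p-value is given, so a ratio compares 2 libraries and not 2 genotypes. Intervals are 95% intervals for counting error only, and reads amplified by PCR are not independent molecules. Less RNA per cell and fewer cells of a type cannot be told apart in such bulk samples.

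Leaves store part of the day's carbon as starch granules in chloroplasts and break them down at night. GBSS1 makes amylose in the granule. SEX1 (also called GWD) and PWD add phosphate to glucan chains at the granule surface, which opens it to the plastid beta-amylases BAM1 and BAM3, which release maltose, and to ISA3, which removes branches. DPE1 rearranges short glucans in the plastid, while DPE2 and PHS2 act in the cytosol on the carbon of exported maltose. QQS (QUA-QUINE STARCH) is an orphan gene, known only from this species, that encodes a very short protein. Plants with less QQS RNA are known to hold more leaf starch, and QQS is known for expression that differs between lines through heritable DNA methylation.

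The libraries held 36098699 to 45198238 assigned reads, of which 955605 to 3044241 fell on nuclear protein-coding loci. The remainder fell on other entries, ribosomal and organellar RNA included. Ratios between libraries are therefore given on reads scaled so that the typical nuclear locus stands near 0 (TMM factors). Levels are given as mRNA TPM, the deposited TPM rescaled to a sum of 1000000 over nuclear protein-coding loci away from ribosomal DNA. The tissue label was met by the leaf mesophyll markers RBCS1A, RCA, CA1, LHCB1.3 and LHCB2.1, which summed to between 11118 and 32612 mRNA TPM. The flower markers AG, AP3 and PI together held 1 to 7 reads per library, and AP3 was at 0 in 3 of the libraries.

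The QQS transcript separated the libraries of the MTA-GFP plants from those of the control line. With MTA-GFP its level was 167 mRNA TPM before IP (95% Poisson interval 125 to 219) and 304 after it (269 to 342). In the control line it was 9.40 mRNA TPM in the input (3.05 to 21.9) and 26.1 in the IP (11.3 to 51.4). Both MTA-GFP values lay above both control values and the intervals of the 2 lines did not overlap. The input and the IP of a line are not replicates of it, so the IPs do not repeat the input contrast independently. QQS was read 52 times in the input of MTA-GFP and 273 times in its IP, and 5 times in the input of the control and 8 times in its IP, so the control side rests on very few reads. Reads of the other genes are listed below in this same order of libraries.

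**Figure D1:**
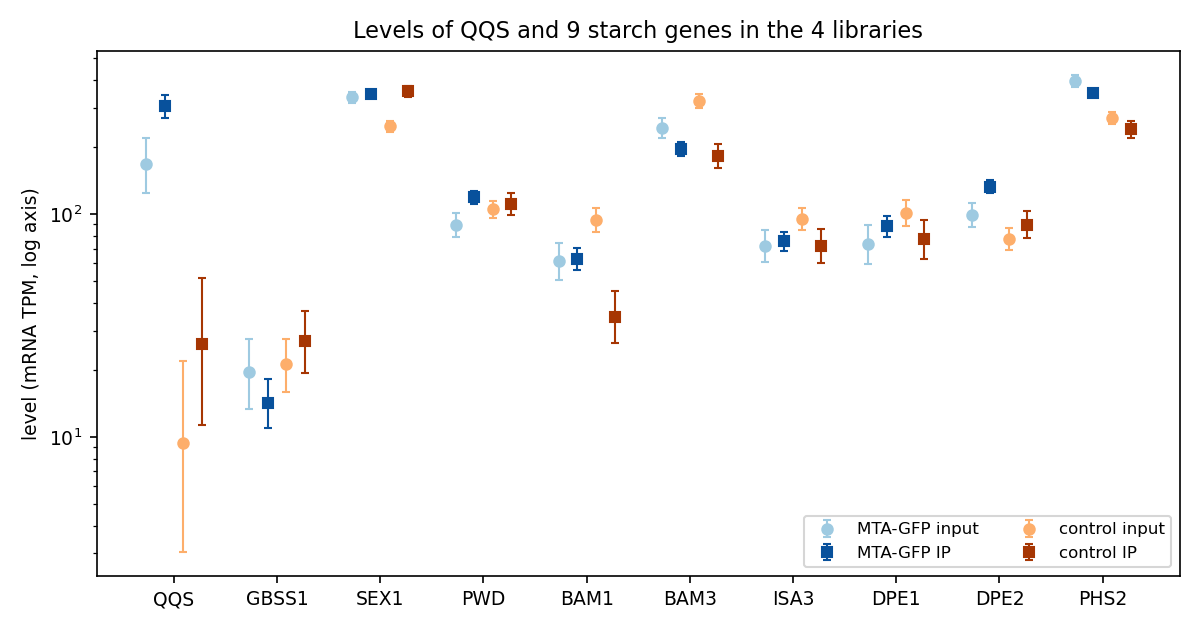
Level of each of the 10 genes (x axis) in mRNA TPM (y axis, log scale) in the 4 libraries. Points are single libraries and bars are 95% Poisson intervals; QQS is at 167 and 304 mRNA TPM in the MTA-GFP libraries and at 9.40 and 26.1 in the control libraries, while BAM1, the widest of the others as a ratio, spans 34.7 to 94.3.

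Between the inputs, QQS was 16.9-fold higher with MTA-GFP, a log2 ratio of 4.08 (2.89 to 5.88). It ranked 17th from the top among 15669 loci compared. It was the 1 gene of the 10 past the size rule upward (at least 2-fold, with an interval off 1), and 0 were past it downward. Over all loci, 7.1% were past the rule upward and 6.7% downward. Since QQS was chosen with this contrast in view, nothing is read from its count.

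A comparison with the other 9 genes inside each library needs no scaling between libraries. Per 1000 reads of those 9 genes, QQS had 15.4 reads in the MTA-GFP input (exact binomial interval 11.5 to 20.2) and 1.04 in the control input (0.337 to 2.42). After IP, MTA-GFP gave 29.3 (25.9 to 33.1) and the control gave 2.95 (1.27 to 5.82). With 0.5 reads added to its counts, QQS was 13.6-fold higher with MTA-GFP between the inputs relative to these genes (5.96 to 47.6). Between the IPs it was 9.38-fold higher (4.98 to 23.3).

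**Figure D2:**
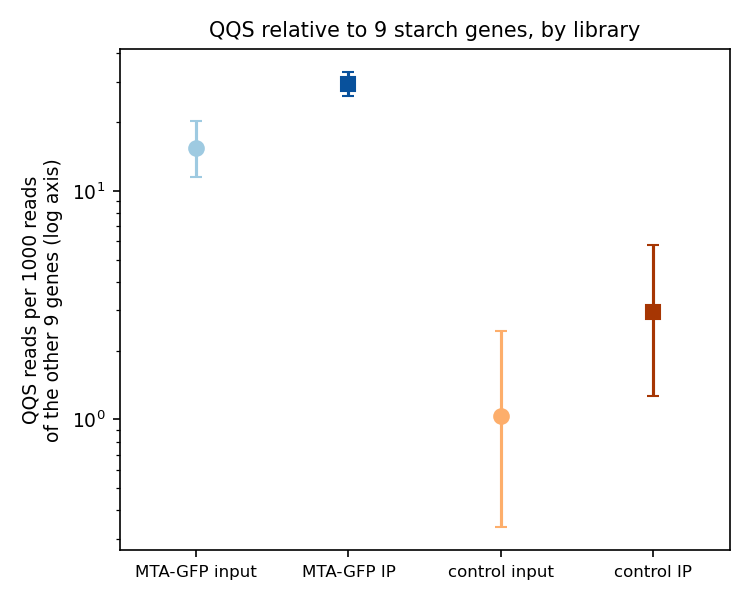
QQS reads per 1000 summed reads of the other 9 genes (y axis, log scale) in each library (x axis), with exact binomial 95% intervals. The MTA-GFP libraries stand at 15.4 and 29.3 and the control libraries at 1.04 and 2.95.

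The starch genes themselves differed far less between the inputs. Their median log2 ratio was -0.07, against 0.01 for all loci compared, and the 9 ratios ran from -0.45 to 0.71. Summed, their reads were 1.24-fold higher with MTA-GFP (1.19 to 1.298). SEX1 and PHS2 weigh most in that sum, with 35.2% and 27.3% of it in the MTA-GFP input and 29.2% and 20.8% in the control input. On reads scaled to the whole library its direction turns, with 3379 of 43950307 reads in the MTA-GFP input and 4818 of 40011502 in the control input. The 9 ratios lay on both sides of 0, and are given below by role.

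GBSS1, the amylose-making synthase, held 32, 63, 55 and 40 reads. Its input ratio was 0.05 on the log2 scale (-0.63 to 0.70), an interval that includes 0.

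Of the dikinases, SEX1 was higher with MTA-GFP between the inputs, with a log2 ratio of 0.58 (0.47 to 0.70). It held 1190, 3344, 1407 and 1138 reads. PWD, which acts on glucans that SEX1 has phosphorylated, held 261, 942, 487 and 293 reads and stood at -0.07 (-0.30 to 0.14). The interval of PWD lay wholly below that of SEX1.

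Among the plastid enzymes of degradation, BAM1 and BAM3 were lower in the MTA-GFP input. BAM1, the beta-amylase also known for its role in guard cells, had 112, 309, 272 and 57 reads and a log2 input ratio of -0.45 (-0.79 to -0.13). BAM3, the main beta-amylase of leaf starch loss at night, had 361, 789, 755 and 245 reads and -0.24 (-0.42 to -0.06). ISA3 at -0.24 (-0.54 to 0.05) and DPE1 at -0.30 (-0.66 to 0.03) had intervals that included 0. ISA3 held 144, 410, 301 and 130 reads, and DPE1 held 104, 340, 228 and 99.

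Both cytosolic enzymes were higher in the MTA-GFP input relative to the typical locus. PHS2, a glucan phosphorylase, held 924, 2204, 1003 and 507 reads and had a log2 ratio of 0.71 (0.58 to 0.84). DPE2, a glucanotransferase that uses maltose, held 251, 910, 310 and 205 reads and had 0.52 (0.27 to 0.76). Neither reached 2-fold. The directions of SEX1, PHS2 and DPE2 hold relative to the typical locus and turn on reads scaled to the whole library, to -0.38, -0.25 and -0.44, where the median of all loci is -0.95.

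The order of the genes by level, which corrects for transcript length, showed the same contrasts. In the MTA-GFP input PHS2 was first at 396 mRNA TPM (370 to 422), SEX1 followed at 334 (315 to 353), BAM3 at 243 (219 to 270) and QQS at 167, the intervals of BAM3 and QQS touching at their ends. In the control input BAM3 was first at 320 (298 to 344), before PHS2 at 270 (254 to 288) and SEX1 at 247 (234 to 260), whose intervals overlap each other. PWD, DPE1, ISA3 and BAM1 followed there at 105, 101, 94.9 and 94.3, with overlapping intervals. DPE2 had 77.2, GBSS1 21.2 (16.0 to 27.6), and QQS was last at 9.40, not separable from GBSS1.

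In the MTA-GFP IP, PHS2 at 348 mRNA TPM, SEX1 at 346 and QQS at 304 were the highest 3, each overlapping the next. In the control IP, SEX1 led at 354 (334 to 376), before PHS2 at 240 (219 to 262) and BAM3 at 182 (160 to 207). QQS at 26.1 was last there and overlapped GBSS1 at 27.0 and BAM1 at 34.7.

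As parts of the 9-gene sum per length, PHS2 took 28.5%, 25.2%, 20.3% and 20.2% in the same order of libraries. BAM3 took 17.5%, 14.2%, 24.1% and 15.4%. SEX1 took 24.1%, 25.02%, 18.6% and 29.8%. The control input therefore had the largest part of BAM3 and the smallest part of SEX1 among the 4 libraries.

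**Figure D3:**
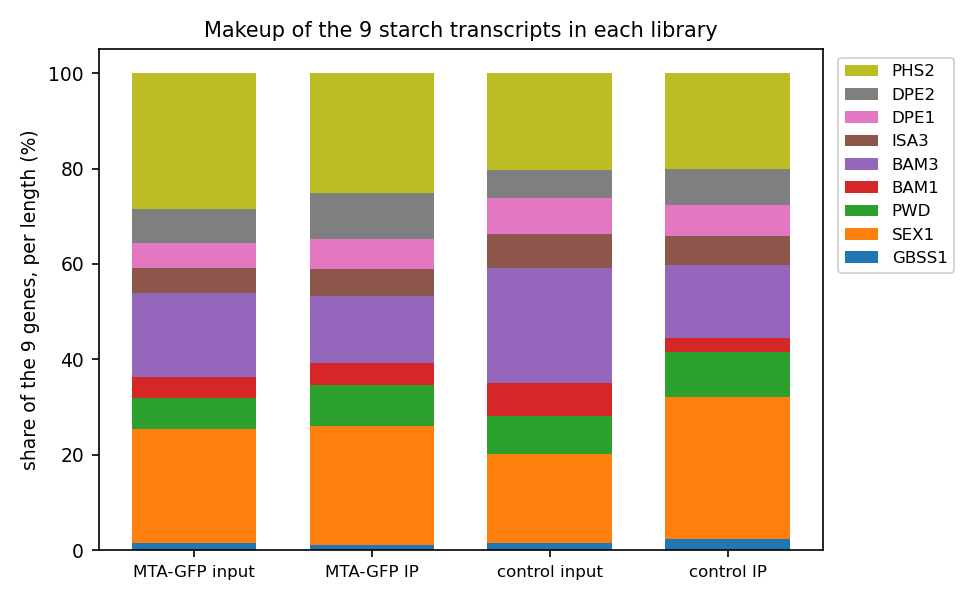
Share of the 9 starch genes, corrected for length, in percent (y axis), for each library (x axis), stacked by gene. BAM3 makes up 24.1% in the control input and 14.2% to 17.5% in the other libraries, and PHS2 makes up 28.5% in the MTA-GFP input.

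Marker genes differed between the inputs as well. All 5 mesophyll markers were past the size rule upward in the MTA-GFP input, with a median log2 ratio of 1.68 (1.60 to 1.93 over the 5), and summed to 32612 mRNA TPM there against 11118 in the control input. The 3 phloem markers stood at 0.31 to 0.82 and the 4 guard cell markers at -0.38 to 0.39, with 0 past the rule. Since many starch genes follow the day, clock genes were read beside them. The morning genes CCA1, LHY and PRR9 ran from -0.46 to 0.34, with a median of -0.25. The evening genes TOC1, GI and LUX ran from -0.58 to 0.47, with a median of -0.32. In both sets 0 were past the rule, and the evening gene ELF4 fell short of the minimum of 40 reads. The part of these differences in the QQS and starch ratios was not tested.

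Recovery with the beads was compared next. On the share of all reads, QQS went with the MTA-GFP beads from 1.18 to 7.56 RPM (reads per 1000000 of the library), and in the control from 0.125 to 0.177 RPM. On that scale the median of all loci moves too, by a log2 of 2.11 with MTA-GFP and by -1.13 with the control, so the ratios below are again relative to the typical locus.

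Relative to it, QQS was higher after IP with MTA-GFP by a log2 of 0.50 (0.07 to 0.96), or 1.41-fold, which is below the size rule. In the control the ratio was 1.59 (-0.15 to 3.601), from 5 and 8 reads. The double ratio, which divides the first enrichment by the other, was -1.10 (-2.70 to 0.51). A difference in the recovery of QQS between MTA-GFP and control was not detectable at this depth. Between the IPs directly QQS was 7.90-fold higher with MTA-GFP, a log2 of 2.98 (2.07 to 4.29). That value is smaller than the input ratio of 4.08, and the intervals overlap.

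The 9 starch genes all had a log2 ratio below 0 in MTA-GFP IP over input relative to the typical locus, from -0.92 to -0.03, with a median of -0.40 against -0.06 over all loci. That common sign depends on the scale. In mRNA TPM, GBSS1, BAM3 and PHS2 were lower in this IP, while SEX1, PWD, BAM1, ISA3, DPE1 and DPE2 were higher. On that scale the intervals of input and IP were apart only for BAM3 and PHS2, which fell, and PWD and DPE2, which rose. Of the 10 members, 0 were past the size rule, against 6.84% of all loci upward and 8.71% downward. Scaled to all reads, the 10 were instead past it upward, as were 14587 of the 15669 loci compared, so nothing is read from that count. GBSS1 was lowest at -0.92 (-1.54 to -0.25), followed by BAM3 at -0.76 (-0.94 to -0.57) and PHS2 at -0.63 (-0.74 to -0.52). PWD at -0.04 (-0.23 to 0.17) and DPE2 at -0.03 (-0.23 to 0.18) had intervals that included 0.

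In control IP over input the genes spread to both sides, with a median of -0.02 for the 9 against 0.01 for all loci. BAM1 was the 1 gene past the rule, 2.43-fold lower in the IP at -1.28 (-1.73 to -0.87). Over all loci 12.1% were past it downward and 9.28% upward. BAM3 was also lower, at -0.66 (-0.87 to -0.45). SEX1 was higher at 0.66 (0.54 to 0.77), and so were DPE2 at 0.37 (0.11 to 0.63) and PWD at 0.23 (0.02 to 0.44).

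In the double ratio GBSS1 and SEX1 were past the rule downward and 0 genes upward, where 9.54% and 7.46% of all loci were. GBSS1 was 2.69-fold lower at -1.43 (-2.27 to -0.59) and SEX1 2.08-fold lower at -1.05 (-1.20 to -0.91). Both directions turn when the libraries are scaled to all reads, to 1.88 and 2.26. PHS2 at -0.61 (-0.80 to -0.42) and DPE2 at -0.40 (-0.72 to -0.07) were lower without reaching 2-fold. BAM1 was higher at 0.85 (0.34 to 1.37), and the other members, PWD, BAM3, ISA3 and DPE1, had intervals that included 0. SEX1 was lower after IP with MTA-GFP, at -0.40 (-0.49 to -0.30), and, as above, higher after IP with the control. In mRNA TPM it was instead at 334 before IP with MTA-GFP and at 346 after it, with overlapping intervals.

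Set against each other, the IPs differed by little for these genes apart from QQS and GBSS1. GBSS1 was 2.60-fold lower with MTA-GFP, at -1.38 (-1.97 to -0.76), the 1 gene past the rule downward, and QQS was the 1 past it upward. The direction of GBSS1 turns to 0.97 on reads scaled to the whole library, and 0 members were past 2-fold downward on either TPM scale. With 0.5 added to the deposited TPM, 2-fold is out of reach for these genes. In mRNA TPM, GBSS1 was lower but short of 2-fold, at 14.2 (10.9 to 18.2) with MTA-GFP and 27.0 (19.3 to 36.8) in the control. Over all loci 4.36% were past it downward and 4.97% upward. The other 8 genes ran from -0.47 (SEX1) to 0.40 (BAM1). PHS2, which had the largest input ratio of the 9, was at 0.09 (-0.05 to 0.24) between the IPs.

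**Figure D4:**
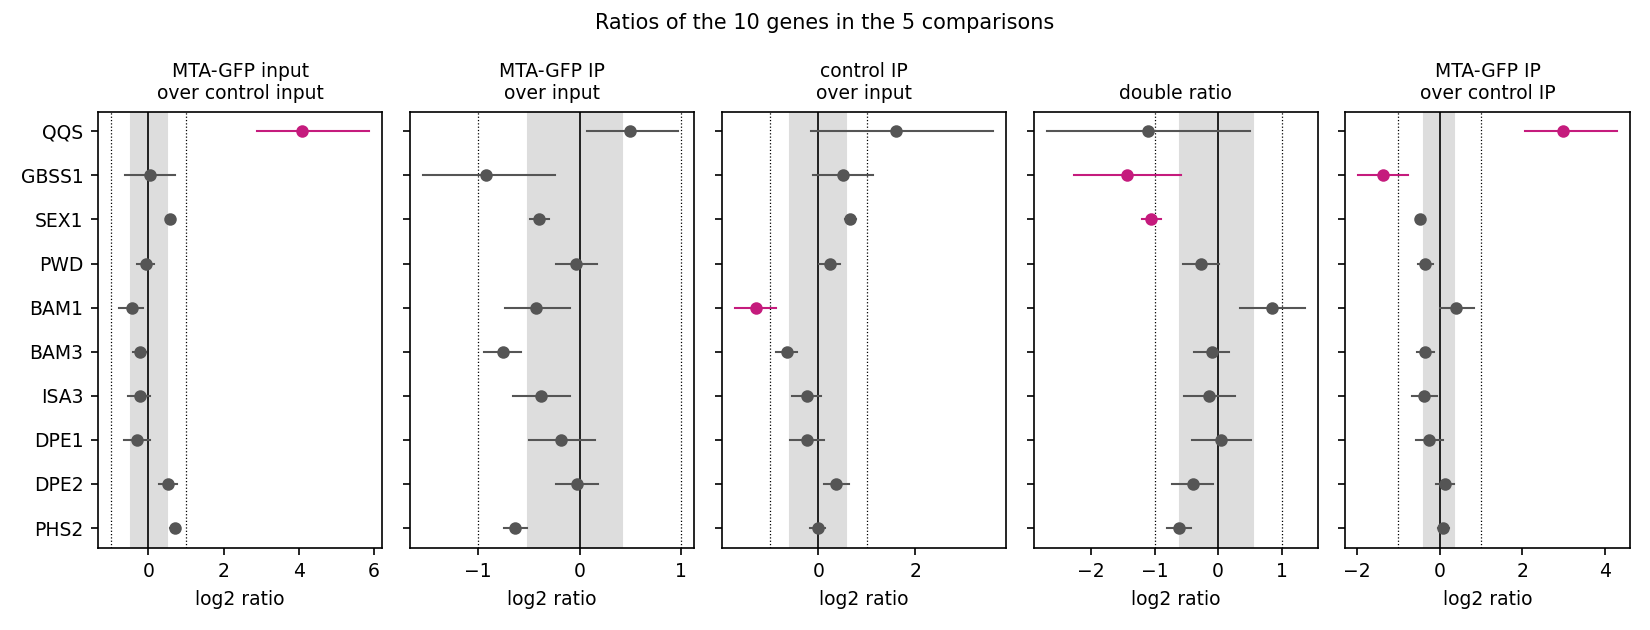
Log2 ratio (x axis, a range of its own in each panel) of the 10 genes in the 5 comparisons, on TMM-scaled reads with 95% counting intervals. Grey bands hold the middle of all loci compared (between the lower and the upper quartile), dotted lines mark 2-fold, and coloured points are past the size rule: QQS between the inputs and between the IPs, BAM1 in control IP over input, GBSS1 and SEX1 in the double ratio, and GBSS1 between the IPs.

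The files list 3 transcript models for QQS, of 654, 684 and 534 bases. With MTA-GFP, 0.313% of the QQS reads were assigned to the 684-base model before IP and 34.8% after it. In the control it took 2.37 of 5 reads in the input and 5.11 of 8 in the IP. The 534-base model took 9.62% in the MTA-GFP input and 0.719% in its IP. These shares are estimates by Salmon from reads that fit several models, and no interval covers that step.

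SEX1 also has 3 models. The model of 4670 bases took 87.3%, 84.8%, 78.4% and 92.2% of its reads in the order of libraries given above. PWD has 2 models, with nearly all reads on the longer one, and the other 7 genes have 1. Summed per locus, the estimated reads of all 10 genes were whole numbers within 0.01 read in every library, as is the case when no read is divided with an entry of another locus. This held for 87.7% of the loci compared. In the reference gene table BAM3 overlaps 2 loci and PHS2 overlaps 1, and the strand setting of the counting is not given, so reads of overlapping genes cannot be told apart there. QQS overlaps none.

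Of the 2 annotated loci nearest to QQS on each side on chromosome 3, 3 are pseudogenes not analysed here, and GDU6, a glutamine dumper family gene, had 0 reads in all 4 libraries. The 3 nearest loci with an entry in the files on each side, GDU6 among them and the rest picked after values were seen, all had 0 reads in every library. A floor of 3 reads was taken as the one-sided limit for a count of 0, for counting error only.

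The loci most like QQS in profile were sought among 11608 loci with at least 100 reads, by Euclidean distance between centred log2 profiles over the 4 libraries. They were AT1G20070 (distance 1.80), AT3G50685 (1.94), AT5G35100 (1.99), AT2G05250 (1.999) and AT2G21210 (2.02). The starch genes, which were not candidates, lay farther away, from 3.34 for DPE2 to 4.38 for GBSS1. The named loci are the smallest of 11608 distances, so nothing is read from that gap. AT2G05250 had 47, 215, 1 and 1 reads, with a log2 input ratio of 5.81, and AT1G20070 had 44, 126, 13 and 5, with 2.55. Each profile has 4 points from the same libraries, so the distances are a description.

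The loci nearest to the median profile of the 9 starch genes lay much closer. They were AT4G23460 at 0.034, ULP1D at 0.044, PEX22 at 0.058, CERK1 at 0.058 and 5PTASE13 at 0.063. These too are the smallest of 11608 distances, and nothing is read from how close they lie. Of the 9, ISA3 at 0.268 and DPE1 at 0.287 lay closest to their own median and BAM1 at 0.870 and GBSS1 at 0.799 farthest.

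The wider starch pathway was read from a list of 39 other genes, all of which passed the minimum. Between the inputs 4 were past the size rule upward and 1 downward, with a median log2 ratio of 0.29 against 0.01 for all loci. The shares over all loci were 7.1% upward and 6.7% downward. The 39 ran from -1.33 to 1.76, all below the 4.08 of QQS. ISA2, a partner of the isoamylase that trims amylopectin, was 3.39-fold higher with MTA-GFP at 1.76 (0.90 to 2.72), from 33 and 17 reads. BAM5, a beta-amylase outside the plastid, was at 1.40 (0.88 to 1.93), SS1, a starch synthase, at 1.12 (0.71 to 1.54) and AMY1, a secreted alpha-amylase, at 1.496 (0.45 to 2.64). BAM7, a nuclear beta-amylase-like transcription factor, was 2.52-fold lower at -1.33 (-2.25 to -0.57).

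In the double ratio 7 of the 39 were past the rule downward and 2 upward, with a median of -0.46 against -0.05 for all loci. Over all loci 9.54% were past it downward and 7.46% upward. Of the 19 genes of starch synthesis, 5 were past it downward and 1 upward, with a median of -0.61. The subunits of ADP-glucose pyrophosphorylase, which makes the glucose donor of starch, were at -1.17 (-1.49 to -0.85) for APL1 and at -1.10 (-1.58 to -0.63) for ADG1. PGI1 at -1.10 (-1.71 to -0.49) and PGM1 at -1.01 (-1.43 to -0.60) supply hexose phosphate for that step. ISA2 at -1.10 (-2.11 to -0.08) was the fifth.

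Both exporters were also past the rule downward in the double ratio, MEX1 for maltose at -1.16 (-2.23 to -0.09) and PGLCT for glucose at -1.01 (-1.44 to -0.58). The phosphatase LSF2 at 2.25 (0.09 to 4.42) and the GBSS1-targeting protein PTST1 at 1.36 (0.22 to 2.51) were past it upward, from 2 and 13 control IP reads. The genes with the most reads in this list were PHS1, the plastid glucan phosphorylase, SBE2.1, a branching enzyme, and AMY3, a plastid alpha-amylase. Their double ratios were -0.61 (-0.86 to -0.36), -0.94 (-1.20 to -0.68) and -0.29 (-0.57 to -0.01). Mesophyll markers had a median double ratio of -1.66 with 5 of 5 past the rule downward, and phloem markers -2.42 with 3 of 3, and their part in the starch values was not tested. On reads scaled to the whole library, the median of all loci in the double ratio is 3.26 and these negative values turn positive. Scaled to nuclear protein-coding reads, that median is 0.36. The synthesis and export genes past the rule downward above then fall short of 2-fold.

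**Figure D5:**
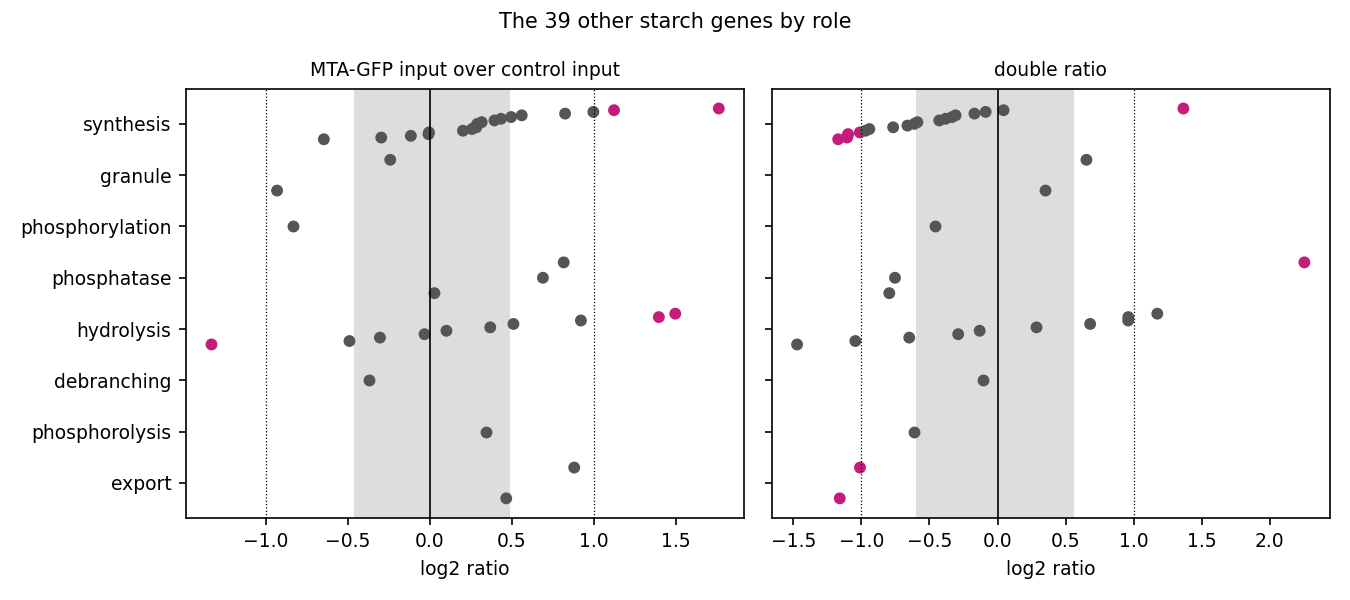
Log2 ratios (x axis) of the 39 other starch genes by role (rows) between the inputs and in the double ratio, on TMM-scaled reads. Grey bands hold the middle of all loci compared (between the lower and the upper quartile), dotted lines mark 2-fold and coloured points are past the size rule; between the inputs the genes run from -1.33 to 1.76, below the 4.08 of QQS.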

How the data were processed

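Per the submitters' processing notes, Trimmomatic, Bowtie, HISAT2 and Salmon were used with build TAIR10. No source used here gives versions, order or strand setting. Per the file headers, the deposited values are estimated counts of reads and TPM for 55524 entries, and the authors' TPM counts structural and organellar RNA in its total.

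Estimated counts of all entries of a locus were added and rounded. Of 24235 nuclear loci with reads, 15669 with at least 40 were compared. TMM factors came from edgeR 4.0.16 (R 4.3.3), and 0.5 reads were added before log2. Ratios of 2 libraries have exact conditional intervals, double ratios intervals from Poisson variances. Levels rescale TPM over nuclear protein-coding loci more than 10 kb from ribosomal RNA genes. Alternatives were scaling to all reads or to protein-coding reads, DESeq2 1.42.0 size factors, the deposited TPM, another added count and other minimums.

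All 32548 loci matched the reference gene table (TAIR10.1), used for names and neighbours. The planned promoter motifs, and sequences, were not analysed here. Members and lists were chosen with earlier results of these data known. Named genes are the members, QQS neighbours, the 5 nearest profiles, and, of the other starch genes, those past the size rule between the inputs or in the double ratio and the 3 with the most reads.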

Additional observations from a re-analysis of the deposited data

Results flagged for a closer look

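SEX1, the dikinase that starts granule breakdown, differed in opposite directions in the IP of each line relative to the typical locus. It was lower after IP with MTA-GFP, at a log2 of -0.40 (-0.49 to -0.30), and higher after IP with the control, at 0.66 (0.54 to 0.77), a double ratio of -1.05, which turns to 2.26 on reads scaled to the whole library. The 5 mesophyll markers had the same opposite signs, between -1.35 and -0.53 for MTA-GFP but between 0.32 and 1.35 for the control, with double ratios of -2.22 to -1.32, and their part in the SEX1 value was not tested. In mRNA TPM, SEX1 stood at 334 before IP with MTA-GFP and at 346 after it, with overlapping intervals. Scaled to protein-coding reads, its double ratio was not past the size rule. With 1 pair of libraries per line, the SEX1 difference was not tested.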

How the results depend on the processing

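No paired analysis was possible because each group holds 1 library, and for the same reason no replicate could be left out. DESeq2 size factors, 1 added read and minimums of 10, 100 or no reads changed none of the QQS ratios beyond their intervals and none of the counts of members past the size rule. Scaled to all reads, QQS was at 2.67 in MTA-GFP IP over input, 5.33 between the IPs and 2.21 in the double ratio. The members past the rule were then 5 downward between the inputs, 10 upward in MTA-GFP IP over input, 5 downward in control IP over input, 10 upward and 0 downward in the double ratio, and 9 upward and 0 downward between the IPs. Of the 15669 loci, 6804, 14587, 8262, 15132 and 15191 were past it in the same comparisons and directions, upward in the last 2. GBSS1 turned to 1.88 in the double ratio and 0.97 between the IPs, and SEX1 to 2.26 in the double ratio. Scaled to protein-coding reads, 1 member (BAM1) was past the rule upward and 1 (GBSS1) downward in the double ratio, and SEX1 was no longer past it. With 0.5 added to the deposited TPM, which lies below 0.5 for all members in all libraries, QQS was at 0.24 between the inputs, 0.58 in the double ratio and 0.82 between the IPs. On that scale 0 members were past 2-fold upward between the inputs or between the IPs, and 0 downward in control IP over input, the double ratio or between the IPs. With TPM below 0.5 and 0.5 added, a ratio of 2 libraries cannot reach 2-fold. Nothing is read from those counts, and the QQS values on that scale are held small in the same way. GBSS1 turned to 0.0077 in the double ratio and 0.0018 between the IPs, and SEX1 to 0.30. With TPM rescaled over protein-coding loci, an alternative chosen after seeing the data and read with no interval, 1 member was past 2-fold upward in control IP over input, 1 upward and 0 downward in the double ratio, and 0 downward between the IPs. Between the inputs, QQS ran from 0.24 on the deposited TPM, where 2-fold is out of reach, to 4.08 over the alternatives, with 3.12 on all reads. Scaled to the other 9 members, also chosen after seeing the data, it was at 3.77. The 5 and 8 control reads of QQS limit every ratio against the control. The share of calls that are upward depends on the scale, at 43.9% in the double ratio, 99.8% on all reads, 78.6% on protein-coding reads and 46.03% on the deposited TPM. Counts of all loci past the rule are likewise set by it, at 1169 upward and 1495 downward in the double ratio, and at 15132 and 24 on all reads, 2515 and 686 on protein-coding reads and 58 and 68 on the deposited TPM.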

Other observations

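Other starch genes differed in the IPs, and those of this paragraph were named after their values were seen. BAM5, whose product is known from phloem, had 79, 135, 53 and 6 reads in the order of libraries given in the report. It was lower in both IPs, at a log2 of -1.12 (-1.52 to -0.69) for MTA-GFP and -2.08 (-3.69 to -0.96) for the control, and between the IPs it was 5.12-fold higher with MTA-GFP. GWD2, a dikinase related to SEX1, was also lower in both IPs, at -1.71 (-2.31 to -1.10) and -1.25 (-1.88 to -0.70). The granule proteins ESV1 and LESV were lower in both IPs as well. ESV1 was at -0.96 (-1.57 to -0.31) for MTA-GFP and -1.61 (-2.43 to -0.94) for the control, and LESV at -0.94 (-1.19 to -0.68) and -1.29 (-1.65 to -0.96). All of these values are relative to the typical locus.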
